A study of Mus musculus with 7 samples.

Results

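The interferon gamma inducible genes described here are 9 mouse genes: the immunity-related GTPases Iigp1, Igtp, Irgm1 and Ifi47, the guanylate-binding proteins Gbp2 and Gbp3, the ubiquitin-like modifier Ubd, the signalling inhibitor Socs1 and the transcription factor Irf1. They were taken by symbol from the platform annotation, which gave 10 probe sets for the 9 genes among 8251 genes on the array. Of these 8251 genes 4316 had a signal of at least 100 in the highest pool, and all 9 genes were among them. The symbols were proposed with earlier results of these data known and with a return at week 10 in view, so they were chosen by these same signal values, which are given as a description with no test.

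The mice were female, CD-1 outbred and 10 to 12 weeks old when the experiment began, and RNA was taken from a stretch of colon. In the TNBS groups mice had received 6 enemas of trinitrobenzene sulphonic acid in ethanol, which couples to proteins of the gut wall so that immune cells react to them. The saline groups had received 6 saline enemas, and no group given ethanol without TNBS was among the samples. Each group was 1 pool of RNA. TNBS-w6 joined 6 mice at 3 days past the last enema, TNBS-w8 4 mice at 2 weeks, TNBS-w10 5 mice at 4 weeks and TNBS-w12 4 mice at 6 weeks. Saline-w6 came from 5 mice at 3 days and was put on 2 arrays, and Saline-w10 joined 2 mice killed at 2 weeks with 2 killed at 4 weeks. TNBS-w12 therefore had no control of its own age.

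Interferon gamma is made mainly by T cells and natural killer cells and acts through a receptor on most other cells, where the kinases JAK1 and JAK2 start the signal. Early target genes carry a promoter element called the gamma-activated site, and the product of one of them, IRF1, then binds interferon-stimulated response elements in further genes. The immunity-related GTPases and guanylate-binding proteins that follow coat the membranes of vacuoles holding intracellular microbes, SOCS1 blocks the Janus kinases, and Ubd, also called FAT10, tags proteins for the proteasome. In colitis, epithelial cells and macrophages are among the cells that respond.

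Each value is the signal intensity of a probe set, linear and scaled by the authors to the same mean on every array, and the number of arrays limits their precision. Both arrays of Saline-w6 correlated at r = 0.987 across probe sets, and the SD of their log2 differences was 0.29, which served as the spread of a repeated array. This spread holds no variation between mice or between pools. TNBS-w8 stood somewhat apart, with r between 0.952 and 0.971 to the other arrays, against 0.960 to 0.981 for the remaining pairs. The 3' to 5' ratio of beta-actin, a sign of RNA quality, lay between 1.14 and 1.24 on the arrays of week 6 and 0.798 to 0.818 on the later arrays. For Gapdh the same ratio overlapped, with 0.912 to 0.942 in the week 6 arrays and 0.869 to 1.00 in those after it. Of 18 colon epithelium markers on the array 17 passed the filter, among them Car1, Car4, Aqp8 and Fabp2. In pooled whole tissue, fewer cells of a type and less RNA per cell cannot be told apart.

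**Figure D1:**
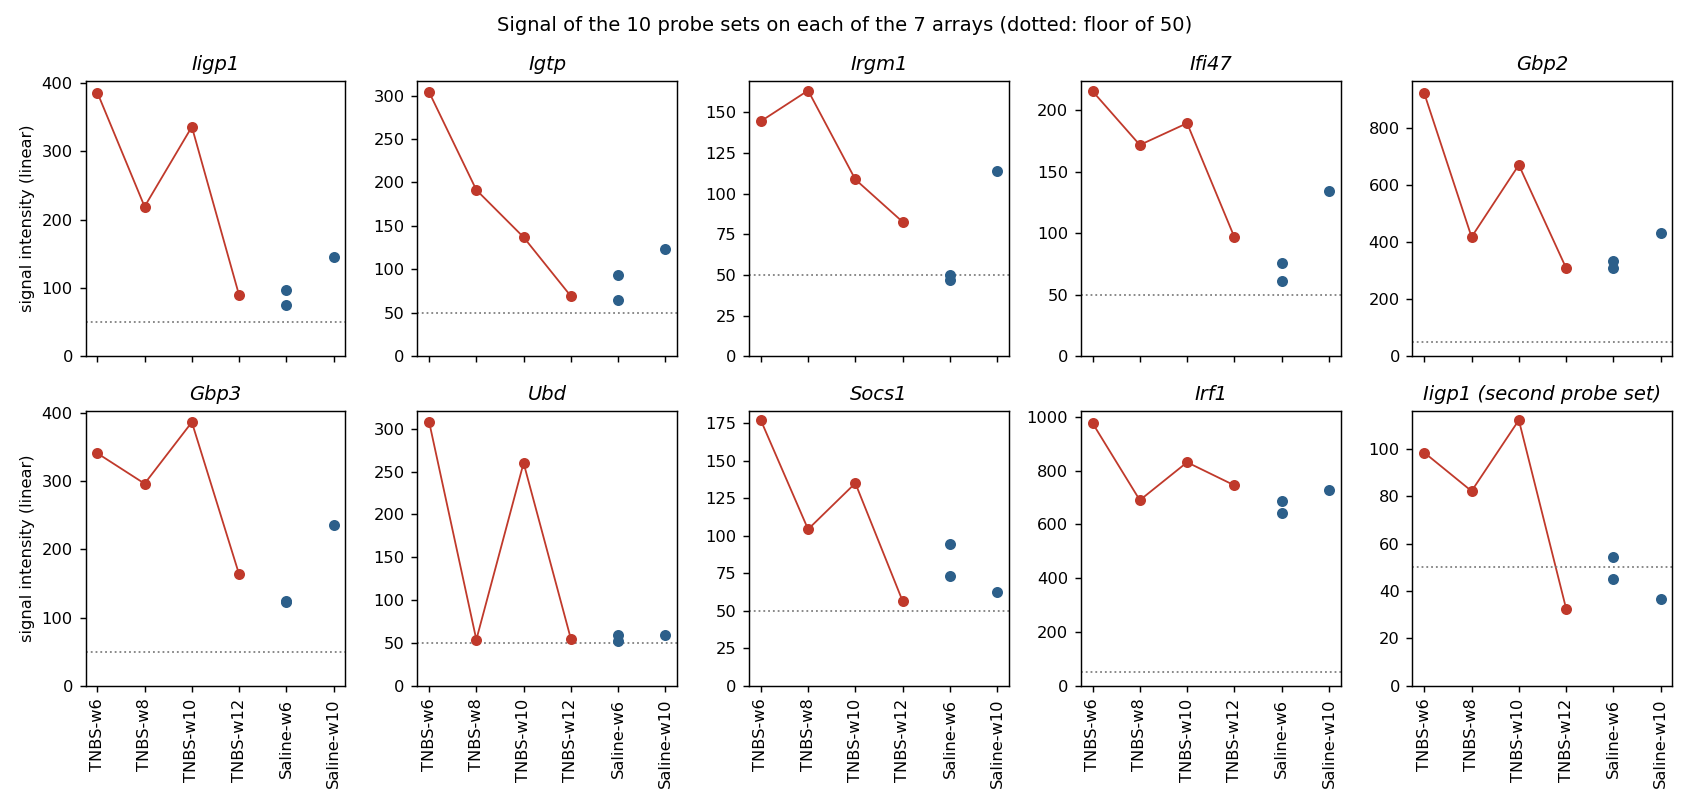
Signal intensity (linear axis from 0) of the 10 probe sets on the 7 arrays, TNBS pools in red joined in order of time and saline arrays in blue, with the floor of 50 dotted. Ubd was at 308 and 260.1 in TNBS-w6 and TNBS-w10 and at 54.0 and 54.9 in TNBS-w8 and TNBS-w12, while Igtp and Irgm1 were lower in TNBS-w10 than in TNBS-w8.

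Among the immunity-related GTPases, Iigp1 (also Irga6), an effector that oligomerises on parasite vacuoles, read 386, 219, 336 and 89.4 in TNBS-w6, TNBS-w8, TNBS-w10 and TNBS-w12. Its saline arrays read 74.9 and 96.8 at week 6 and 145 in Saline-w10. TNBS-w6 and TNBS-w10 were thus the highest, 0.20 apart on the log2 scale and so within the spread of a repeated array, and TNBS-w12 lay between the saline arrays of week 6. The other probe set of Iigp1, whose design allows it to bind related transcripts, read 98.3, 82.1, 112 and 32.6 in the same TNBS pools, against 45.0 and 54.4 in Saline-w6 and 36.6 in Saline-w10. It was dimmer, under the floor of 50 on 3 arrays, and was also higher in TNBS-w10 than in TNBS-w8 and TNBS-w12. In TNBS-w6 it was at least 1.88-fold higher than in Saline-w6.

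Igtp, also called Irgm3, and Irgm1 are regulatory members of the family that keep the effectors inactive on the cell's own membranes. Igtp read 304, 191, 137 and 69.2 in the TNBS pools in order of time, against 64.2 and 93.9 in Saline-w6 and 124 in Saline-w10. It was lower in each later TNBS pool and did not return, and at week 10 its difference from Saline-w10 lay within the spread of a repeated array. Its saline arrays of week 6 were 1.46-fold apart, the widest such gap among the 10 probe sets. That gap is wider than the 1.40-fold by which Igtp was lower in TNBS-w10 than in TNBS-w8. Irgm1 read 145, 163.5, 109 and 82.7 in the TNBS pools, against 49.9 and 46.7 in Saline-w6 and 114 in Saline-w10. It was highest in TNBS-w8, but the gap of 0.18 to TNBS-w6 on the log2 scale lay within the array spread. Both its saline arrays of week 6 lay under the floor. Ifi47, also called Irgd, a further GTPase of the family, read 215.5, 172, 189.5 and 96.9 in the TNBS pools, against 61.0 and 76.1 in Saline-w6 and 135 in Saline-w10. Its values in TNBS-w6, TNBS-w10 and TNBS-w8 followed each other at gaps of 0.19 and 0.14 on the log2 scale, both within the array spread.

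The start regions of Igtp and Irgm1 are shown because both genes lacked the return that most of the other genes had. Each window runs from 250 bases before to 50 bases after the start of a transcript in RefSeq (GRCm38.p6), and capitals mark matches on either strand to the gamma-activated site TTCNNNGAA or to the core of the response element, which is GAAA, any 2 bases and GAAA again. The Igtp window (chr11:58199306-58199605, plus strand) held 1 of each, starting 45 and 34 bases before the start, and the Irgm1 window (chr11:48871371-48871670, minus strand) held 2 overlapping cores, starting 30 and 24 bases before it.
Igtp: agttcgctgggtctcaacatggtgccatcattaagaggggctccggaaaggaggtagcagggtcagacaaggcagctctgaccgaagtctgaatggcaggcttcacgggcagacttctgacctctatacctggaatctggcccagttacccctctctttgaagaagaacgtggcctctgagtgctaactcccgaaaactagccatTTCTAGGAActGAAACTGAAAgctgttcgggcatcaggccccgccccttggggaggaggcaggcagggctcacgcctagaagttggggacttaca
Irgm1: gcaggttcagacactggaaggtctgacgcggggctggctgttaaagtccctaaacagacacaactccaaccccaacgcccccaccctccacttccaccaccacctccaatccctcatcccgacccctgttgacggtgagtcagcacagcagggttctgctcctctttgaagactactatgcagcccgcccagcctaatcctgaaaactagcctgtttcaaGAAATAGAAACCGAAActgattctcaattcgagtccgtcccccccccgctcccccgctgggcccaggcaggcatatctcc

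Gbp2 and Gbp3, large GTPases that attack pathogen vacuoles and help to activate inflammasomes, both lie on chromosome 3. Gbp2 read 921, 418, 670.2 and 309 in the TNBS pools in order of time, against 311 and 335 in Saline-w6 and 433 in Saline-w10. Only TNBS-w6 and TNBS-w10 were above all saline arrays, and TNBS-w8 lay just under Saline-w10. Gbp3 read 341, 296, 386 and 163 in the TNBS pools, against 122 and 125 in Saline-w6 and 235 in Saline-w10. By the brightest probe set of each gene, it was the only one of the 9 with its highest value in TNBS-w10. The dimmer probe set of Iigp1 was also highest there. Its values in TNBS-w10, TNBS-w6 and TNBS-w8 followed each other at gaps of 0.18 and 0.20 on the log2 scale, both within the array spread.

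Ubd, the modifier FAT10, had the widest range over the pools, 2.51 on the log2 scale. It read 308, 54.0, 260.1 and 54.9 in TNBS-w6, TNBS-w8, TNBS-w10 and TNBS-w12, against 59.3 and 52.9 in Saline-w6 and 59.2 in Saline-w10. Its values thus fell into a high set of TNBS-w6 and TNBS-w10 and a low set of all other arrays, which were just above the floor. Ubd passed the filter through TNBS-w6 and TNBS-w10 alone, so its high values there are tied to how it was kept. The windows of Gbp2 (chr3:142620413-142620712, plus strand) and Ubd (chr17:37193642-37193941, plus strand) are shown because both genes were high again in TNBS-w10. In the Gbp2 window 1 core, on the reverse strand, started 59 bases before the start. Neither motif was matched in the Ubd window, which says only that these letters are not in it.
Gbp2: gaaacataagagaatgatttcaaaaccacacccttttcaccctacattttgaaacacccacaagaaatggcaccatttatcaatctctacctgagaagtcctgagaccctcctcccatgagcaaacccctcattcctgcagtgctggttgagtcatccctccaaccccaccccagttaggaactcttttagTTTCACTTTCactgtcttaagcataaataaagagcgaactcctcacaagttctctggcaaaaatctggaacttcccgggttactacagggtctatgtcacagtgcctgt
Ubd: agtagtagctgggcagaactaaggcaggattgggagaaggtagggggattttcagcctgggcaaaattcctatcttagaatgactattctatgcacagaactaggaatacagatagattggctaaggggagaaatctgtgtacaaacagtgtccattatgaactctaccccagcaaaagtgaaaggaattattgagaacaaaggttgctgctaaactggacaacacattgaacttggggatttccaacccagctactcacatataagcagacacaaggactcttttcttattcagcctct

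Of the regulators, Socs1, the feedback inhibitor of Janus kinases, read 177, 104, 135 and 56.5 in the TNBS pools, against 94.3 and 73.0 in Saline-w6 and 62.4 in Saline-w10. By the brightest probe set of each gene, it was the only one of the 9 that was lower in Saline-w10 than in Saline-w6. Socs1 passed the filter through TNBS-w6, TNBS-w8 and TNBS-w10 alone. It was 1.29-fold higher in TNBS-w10 than in TNBS-w8, and its Saline-w6 arrays were also 1.29-fold apart. Irf1, a transcription factor made early in the response, had the narrowest range, 0.56 on the log2 scale. It read 976, 689.8, 831 and 745 in the TNBS pools, against 686 and 641 in Saline-w6 and 729 in Saline-w10. Each of its neighbouring pools, in order of level, lay within the spread of a repeated array. The window of the upstream start of Irf1 (chr11:53769764-53770063, plus strand) is shown because it held a gamma-activated site, 90 bases before the start.
Irf1: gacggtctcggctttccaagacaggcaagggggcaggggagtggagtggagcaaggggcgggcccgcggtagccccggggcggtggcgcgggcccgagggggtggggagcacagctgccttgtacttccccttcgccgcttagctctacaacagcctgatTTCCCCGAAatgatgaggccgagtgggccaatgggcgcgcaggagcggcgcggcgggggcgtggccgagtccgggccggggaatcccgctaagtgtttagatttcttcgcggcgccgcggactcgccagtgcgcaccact

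Windows of the 9 genes on chromosome 18, where Iigp1 lies, were left out, so none is given for it. The 10 windows used belong to 8 of the 9 genes. Of these windows, 2 held the gamma-activated site (Igtp and Irf1) and 5 the core (Gbp2, Gbp3, Igtp, Irgm1 and Socs1). Of all 32851 windows, with no chromosome left out, 8.3% held the site and 3.44% the core. Such matches are a description of the letters and no evidence of binding.

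At week 6 the question is which transcripts differ 3 days after the last enema. Of the 9 genes 8 were at least 2-fold higher in TNBS-w6 than in Saline-w6, where 2.55% of all genes were, and none was at least 2-fold lower, where 0.996% were. Their median log2 difference was 1.53, beside -0.02 over all genes. For values under 50, which were set to 50, a fold is a bound. Among the GTPases, Irgm1 was at least 2.89-fold, Ifi47 3.16-fold, Igtp 3.92-fold and Iigp1 4.54-fold higher. Ubd was 5.50-fold higher, Gbp2 2.85-fold, Gbp3 2.76-fold and Socs1 2.13-fold, and Irf1 was 1.47-fold higher. Against Saline-w10 the count was 5 (median 1.09), and it was 8 without the first array of Saline-w6 and 7 without the second. These counts have no share of all genes beside them.

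At week 8 none of the 9 genes was at least 2-fold higher or lower in TNBS-w8 than in Saline-w10, where 1.53% of all genes were higher and 1.78% lower. The median log2 difference was 0.35, beside -0.07 over all genes. Socs1 was 1.67-fold, Igtp 1.55-fold and Iigp1 1.51-fold higher, and Gbp2, Ubd and Irf1 differed from it by less than the array spread, at log2 differences of -0.05, -0.13 and -0.08. Against Saline-w6 in its place 5 genes were at least 2-fold higher (median 1.26), so the count at week 8 depended on which saline pool was used. No share of all genes is given for TNBS-w8 against Saline-w6.

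At week 10, 3 of the 9 genes were at least 2-fold higher in TNBS-w10 than in Saline-w10, where 0.834% of all genes were, and none was at least 2-fold lower, where 0.649% were. These were Ubd at 4.39-fold, Iigp1 at 2.32-fold and Socs1 at 2.16-fold. Gbp3 was 1.64-fold, Gbp2 1.55-fold and Ifi47 1.41-fold higher, while Igtp, Irgm1 and Irf1 lay within the array spread, at log2 differences of 0.15, -0.06 and 0.19. The median was 0.63, beside -0.0038 over all genes. Against Saline-w6 the count was 6 (median 1.12), and with log2(value + 50) it was 1, Ubd, where 15 of 4316 genes were. The share of all genes against Saline-w6 is not given.

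At week 12 none of the 9 genes was at least 2-fold higher or lower than in Saline-w10, where 0.718% of all genes were higher and 0.88% lower. In TNBS-w12 8 of the 9 lay below Saline-w10, as did 49.6% of all genes, and the median log2 difference was -0.48, beside 0 over all genes. Igtp was 1.79-fold, Iigp1 1.62-fold and Gbp3 1.44-fold lower in TNBS-w12. Against Saline-w6 the median was 0.07, so the direction at week 12 turned with the saline pool. None of the 9 was at least 2-fold higher or lower in TNBS-w12 than in Saline-w6, where 1.32% of all genes were higher and 2.02% lower. The genes nearest to Saline-w6 were Ubd, Gbp2 and Iigp1, with log2 differences of -0.03, -0.06 and 0.07.

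**Figure D2:**
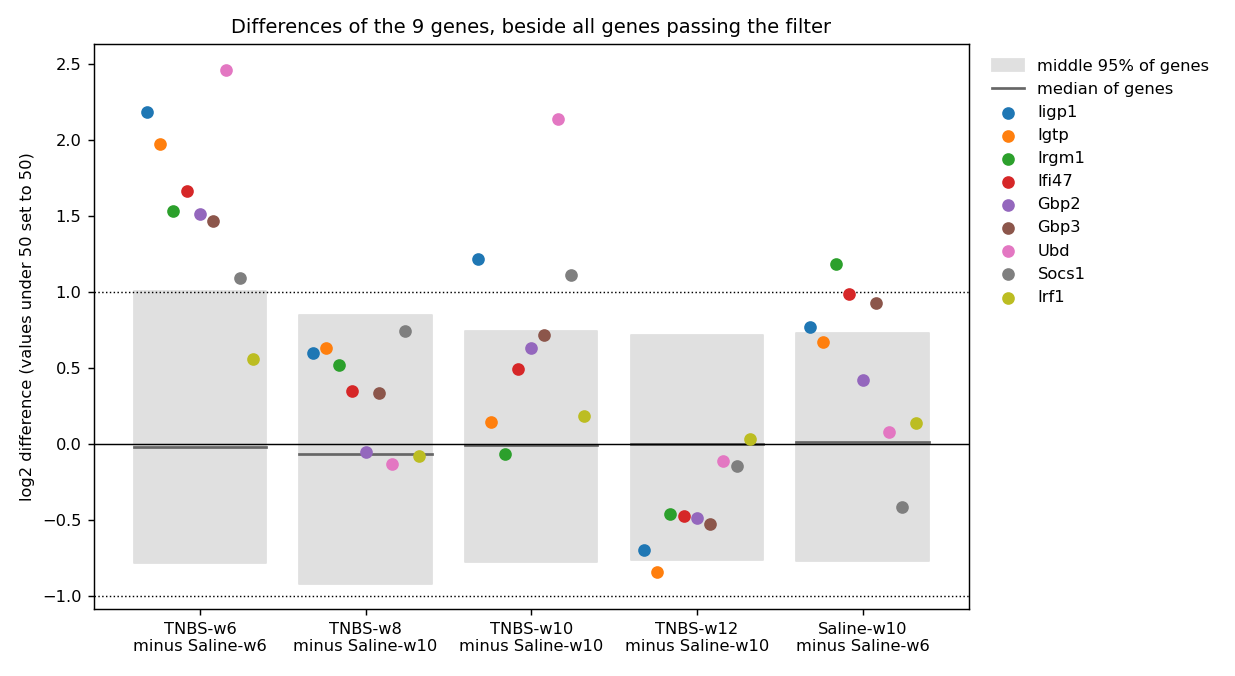
Log2 differences of the 9 genes in TNBS-w6 minus Saline-w6, in the 3 later TNBS pools minus Saline-w10 and between both saline pools, with the middle 95% of all genes as a grey band, their median as a line and 2-fold differences dotted. At week 6 all genes but Irf1 lie above the 2-fold line, at week 10 only Ubd, Iigp1 and Socs1 do, and at week 12 all but Irf1 lie below 0.

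The later saline pool was itself above the week 6 saline pool for 8 of the 9 genes, without TNBS, as it was for 51.5% of all genes. Their median log2 difference, Saline-w10 minus Saline-w6, was 0.67, beside 0.01 over all genes. Only Irgm1 reached 2-fold, at least 2.28-fold higher, as 0.857% of all genes did upward, and Ifi47 was 1.98-fold and Gbp3 1.90-fold higher. Ubd (log2 difference 0.08) and Irf1 (0.14) lay within the array spread, and Socs1 was 1.33-fold lower. The count was 2 without the second array of Saline-w6, with no share of all genes beside it. The beta-actin ratio also differed between these pools, at 0.798 in Saline-w10, against 1.14 and 1.23 in Saline-w6, and its part in this difference was not tested. The Gapdh ratio was 0.897 in Saline-w10, against 0.912 and 0.942 in Saline-w6. None of the 9 genes differed 2-fold between both arrays of Saline-w6, where 0.718% of all genes did.

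Between TNBS-w8 and TNBS-w6, 8 of the 9 genes were lower in TNBS-w8, as were 54% of all genes, with a median log2 difference of -0.67, beside -0.05 over all genes. Ubd was 5.71-fold and Gbp2 2.20-fold lower in TNBS-w8, the 2 of the 9 past 2-fold, where 3.82% of all genes were lower by that much and 2.09% higher. Irgm1 was the exception, at 1.13-fold higher in TNBS-w8, which lay within the array spread.

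The later TNBS pools can be compared with each other without a saline pool. Of the 9 genes 7 were higher in TNBS-w10 than in both TNBS-w8 and TNBS-w12, where 29.3% of all genes were, and the exceptions were Igtp and Irgm1. By at least 1.5-fold over both, 3 were (Ubd, Iigp1 and Gbp2), where 1.34% of all genes were. Against TNBS-w8 alone 7 were higher in TNBS-w10, as were 54.6% of all genes, and against TNBS-w12 alone 9 were, as were 48.3%. At least 2-fold above TNBS-w8 was 1, Ubd, where 2.11% of all genes were, and none was at least 2-fold below it, where 1.74% were. The log2 difference of TNBS-w10 minus TNBS-w8 was 2.27 for Ubd, 0.68 for Gbp2, 0.62 for Iigp1, 0.38 for Gbp3 and 0.37 for Socs1. For Irf1 (0.27) and Ifi47 (0.14) it lay within the array spread, and it was -0.48 for Igtp and -0.59 for Irgm1. Between TNBS-w12 and TNBS-w10 all 9 genes were lower in TNBS-w12, with a median log2 difference of -1.12, beside 0.01 over all genes. Of these, 5 were at least 2-fold lower in TNBS-w12, where 1.2% of all genes were and 1.11% were at least 2-fold higher, from Ubd at 4.74-fold and Iigp1 at 3.76-fold to Socs1 at 2.39-fold, Gbp3 at 2.36-fold and Gbp2 at 2.17-fold.

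**Figure D3:**
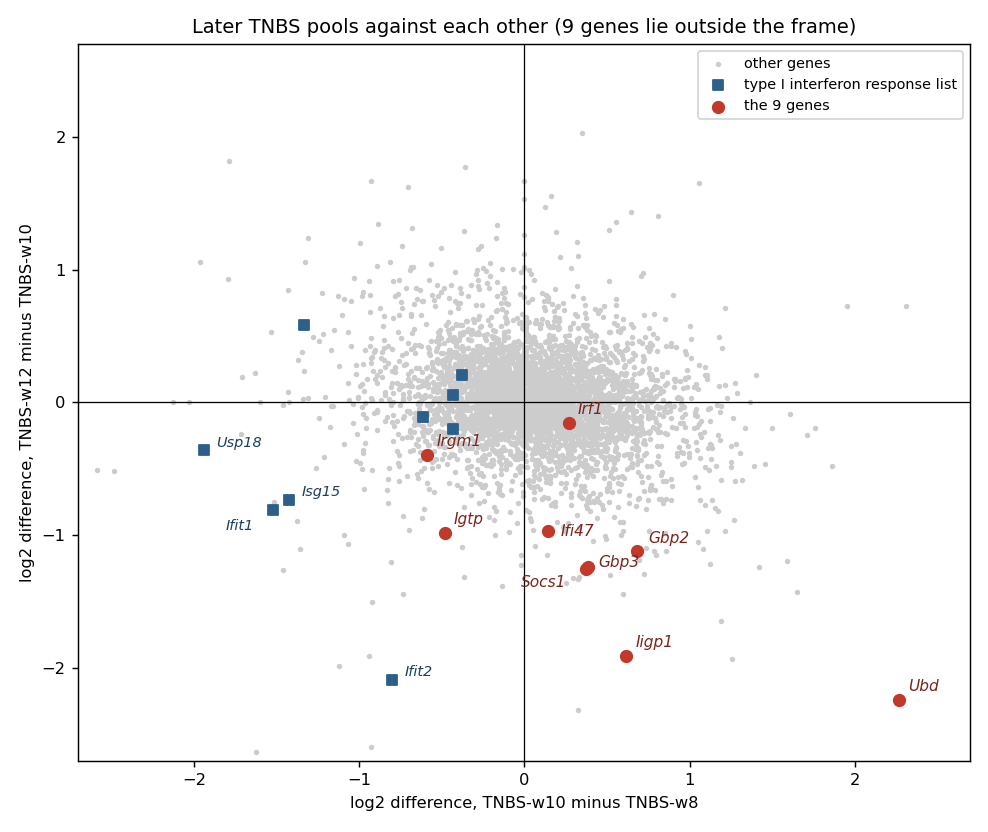
Each point is a gene, with the log2 difference TNBS-w10 minus TNBS-w8 on the x axis and TNBS-w12 minus TNBS-w10 on the y axis, the 9 genes in red and the type I interferon response list in blue squares. Of the 9 genes 7 lie right of 0 and below 0, higher in TNBS-w10 than in both other pools, and all 9 squares lie left of 0.

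The type I interferon response genes, which share many promoter elements with the genes above, ran another course. All 9 of this list that passed the filter, of 16 on the array, were highest in TNBS-w8 among the later TNBS pools, as were 33.5% of all genes. Isg15, a ubiquitin-like modifier induced by type I interferon, read 302, 1194, 445 and 267 in the TNBS pools in order of time, against 193 and 176 in Saline-w6 and 695 in Saline-w10. Ifit1, which binds foreign RNA, read 134, 601, 209 and 119, against 24.3 and 16.3 in Saline-w6 and 256 in Saline-w10. Both were thus higher in TNBS-w8 than in TNBS-w6, where Ubd, Gbp2 and Socs1 were lower. The median log2 difference of this list was 0.56 at week 6, 0.78 at week 8, -0.29 at week 10 and -0.35 at week 12, and 1.51 for Saline-w10 minus Saline-w6. Among the 9 genes, Igtp and Irgm1 were the 2 that were also highest in TNBS-w8 among the later TNBS pools.

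Of 21 genes on the array for interferon gamma induced chemokines and antigen presentation, 18 passed the filter. At week 6, 3 of the 18 were at least 2-fold higher, where 2.55% of all genes were. Psmb9, a subunit of the immunoproteasome, was 2.45-fold, Tap1, a peptide transporter, 2.10-fold and Cxcl9, a T cell chemokine, at least 2.46-fold higher. Cxcl9 passed the filter through TNBS-w6 alone. The list's median log2 difference was 0.44 at week 6, 0.00 at week 8, 0.12 at week 10 and -0.01 at week 12. Higher in TNBS-w10 than in both TNBS-w8 and TNBS-w12 were 6 of the 18, a share near the 29.3% of all genes. These were Psmb9 and, named after their values were seen, the MHC class II pathway genes H2-Aa, H2-Ab1, H2-DMa, H2-DMb1 and Cd74. H2-Ab1, a class II chain, read 632, 191, 443 and 226 in the TNBS pools, against 356 and 311 in Saline-w6 and 318 in Saline-w10. H2-Aa, its partner chain, read 2839, 1181, 2035 and 934.5, against 1527 and 1497 in Saline-w6 and 1872 in Saline-w10. In both genes TNBS-w6 and TNBS-w10 were above all saline arrays, as in Gbp2. H2-Eb1, a further class II chain, also named after its values were seen, went the other way, with 161, 259, 217.5 and 438 in the TNBS pools, against 216.5 and 263 in Saline-w6 and 252 in Saline-w10.

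**Figure D4:**
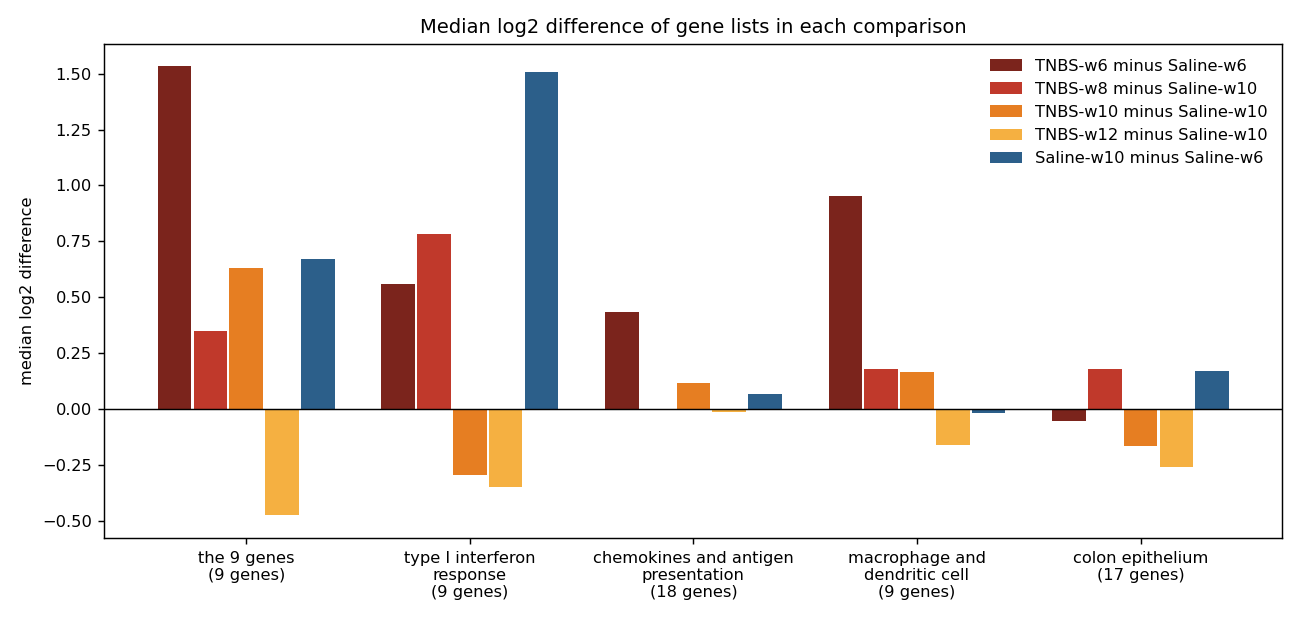
Bars give the median log2 difference of the 9 genes and of 4 lists in each TNBS pool against its saline pool and between both saline pools, with the number of genes that passed the filter under each name. The 9 genes stand at 1.53, 0.35, 0.63 and -0.48 from week 6 to week 12, and the type I list at 0.56, 0.78, -0.29 and -0.35.

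Other GTPases of both families gave few usable probe sets. Of 5 genes on the array 2 passed the filter, Irgm2, a regulatory relative of Irgm1, and Gbp7. Irgm2 read 416, 502, 329.8 and 189 in the TNBS pools, against 146 and 144 in Saline-w6 and 337 in Saline-w10, and was 2.88-fold higher at week 6. Gbp7 read 420.2, 503, 433 and 269, against 201 and 225 in Saline-w6 and 328 in Saline-w10, and was 1.98-fold higher. Both were highest in TNBS-w8, as Irgm1 was and Gbp2 and Gbp3 were not. The gap of TNBS-w8 to TNBS-w6 was 0.27 for Irgm2, 0.26 for Gbp7 and 0.18 for Irgm1 on the log2 scale. All of these lay within the array spread.

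Upstream of the 9 genes, Ifng, the ligand, was listed at 0.5 to 7.1 on all arrays and so lay far under the floor. Of 18 ligand, receptor and signalling genes on the array 10 were under the floor on every array, among them Il12a, Il12b and Stat4, and 7 passed the filter. At least 2-fold higher at week 6 was 1, Il18bp, a secreted inhibitor of interleukin 18, at 2.37-fold or more, where 2.55% of all genes were. It read 119, 80.4, 91.1 and 93.5 in the TNBS pools, against 39.2 and 15.3 in Saline-w6 and 52.6 in Saline-w10. Il18bp passed the filter through TNBS-w6 alone. Ptpn2, a tyrosine phosphatase that dampens Janus kinase signalling, was 1.54-fold, Jak2 1.39-fold and Il18 1.27-fold higher. The list's median was 0.34 at week 6, 0.08 at week 8, 0.05 at week 10 and 0.14 at week 12, and none of the 7 genes was at least 2-fold different in the later comparisons. Both receptor chains passed the filter, and Ifngr2, named after its values were seen, read 320, 216, 296 and 295.5 in the TNBS pools, against 296 and 285 in Saline-w6 and 233 in Saline-w10.

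Of the relatives of Socs1, 3 of 4 on the array passed the filter, and all 3 lay below 0 at week 6. Socs2 was 1.73-fold, Cish 1.17-fold and Socs5 1.13-fold lower, while Socs1 was higher, and the list's median was -0.23 at week 6, -0.24 at week 8, 0.15 at week 10 and 0.14 at week 12. Of the relatives of Irf1, 5 of 6 passed the filter. Irf9, a transcription factor of the type I interferon response, was 1.60-fold, Irf7, which drives type I interferon, 1.47-fold, Irf5 1.33-fold and Irf8 1.29-fold higher at week 6. The list's median was 0.41 at week 6, 0.15 at week 8, 0.07 at week 10 and -0.12 at week 12. None of the 5 was higher in TNBS-w10 than in both TNBS-w8 and TNBS-w12, where 29.3% of all genes were.

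Markers of macrophages and dendritic cells moved with the 9 genes at week 6. Of 9 such markers that passed the filter, of 17 on the array, 4 were at least 2-fold higher in TNBS-w6, where 2.55% of all genes were. The median log2 difference of the 9 markers was 0.95, with Tyrobp at 4.22-fold, Lyz2 at 2.15-fold, C1qb at 2.14-fold and C1qa at 2.02-fold. The summed signal of the 17 genes was 9153 in TNBS-w6, 5791 in TNBS-w8, 6429 in TNBS-w10 and 6028 in TNBS-w12, against 5740 and 5340 in Saline-w6 and 5591 in Saline-w10. The defining markers Adgre1, Itgam, Aif1 and Fcer1g were under the floor on every array, though none was at 0. At week 10 none of the 9 was at least 2-fold higher (median 0.17), and 3 were higher in TNBS-w10 than in both TNBS-w8 and TNBS-w12 (C1qa, C1qc and Cd14, the last 2 named after their values were seen), a share near the 29.3% of all genes. The other 6, Tyrobp and Lyz2 among them, were lower in TNBS-w10 than in TNBS-w8. The part of these cells in the differences of the 9 genes was not tested.

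T cell and natural killer cell markers, the usual source of interferon gamma, were mostly under the floor. Of 21 on the array 12 were under it on all arrays, among them Cd3d, Cd3g, Cd8a and Prf1, and 4 passed the filter. Zap70, a T cell receptor kinase, was 2.09-fold and Ltb, a lymphotoxin, 1.83-fold higher at week 6, with Thy1 and Cd4 at 1.18-fold each. The median of these 4 was 0.56 at week 6, -0.12 at week 8, 0.03 at week 10 and -0.05 at week 12. Zap70 read 112, 77.6, 103 and 50.1 in the TNBS pools, against 57.2 and 49.3 in Saline-w6 and 53.8 in Saline-w10, and was thus highest in TNBS-w6 and TNBS-w10. Both Zap70 and Thy1 passed the filter through TNBS-w6 and TNBS-w10 alone, so their high values there are tied to how they were kept. Cd4 read 107, 52.5, 52.2 and 77.9, against 92.4 and 89.8 in Saline-w6 and 81.0 in Saline-w10, and so was not high in TNBS-w10, and it passed the filter through TNBS-w6 alone. Ltb read 457.5, 288, 244 and 279, against 264 and 238 in Saline-w6 and 244 in Saline-w10, and had its lowest TNBS value in TNBS-w10. The summed signal of the 21 genes was 1312 in TNBS-w6, 847 in TNBS-w8, 904 in TNBS-w10 and 832.5 in TNBS-w12, against 936.5 and 912 in Saline-w6 and 922 in Saline-w10. In TNBS-w10 this sum was above TNBS-w8 and TNBS-w12 and just under the lowest saline array, by less than the arrays of Saline-w6 were apart. Its part in the return of Ubd was not tested.

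B cell and plasma cell markers had 9 of 11 genes past the filter, with a median of 0.35 at week 6, -0.13 at week 8, -0.06 at week 10 and 0.03 at week 12. Fcer2a was at least 2.16-fold, Ms4a1 2.11-fold and Cd79b 1.79-fold higher and Ighm 1.66-fold lower at week 6. Fcer2a passed the filter through TNBS-w6 and TNBS-w12 alone. The summed signal of the 11 genes was 5750 in TNBS-w6, 5994 in TNBS-w8, 6114 in TNBS-w10 and 5537 in TNBS-w12, against 7761 and 7459 in Saline-w6 and 5949 in Saline-w10. The epithelium markers had medians of -0.05, 0.18, -0.16 and -0.26 from week 6 to week 12, with Fabp2 2.23-fold, Car4 2.02-fold, Aqp8 1.55-fold and Car1 1.43-fold lower at week 6. Their summed signal was 42676, 61369, 40879 and 37179 in the TNBS pools in order of time, against 48540 and 44261 in Saline-w6 and 47206 in Saline-w10. The epithelial sum was thus highest in TNBS-w8, where Ubd read 54.0, and its part in that value was not tested.

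The 9 genes differed in how close they were to each other's profile. Over the 6 pools the Pearson r of a gene's log2 values with the mean of the other 8 was 0.989 for Iigp1, 0.957 for Gbp2, 0.933 for Ifi47 and 0.914 for Gbp3. It was 0.874 for Igtp, 0.855 for Socs1, 0.822 for Irf1, 0.798 for Ubd and 0.705 for Irgm1. Of 709 other genes above the floor on all arrays that spanned at least 2-fold, the 8 most like the mean profile of the 9 were Psmb9 (r = 0.964), Lgmn, a lysosomal protease (0.951), Col4a1, a basement membrane collagen (0.915), Rbms1, an RNA-binding protein (0.891), Tyrobp (0.888), Mpeg1, a macrophage pore-forming protein (0.879), Tap1 (0.870) and the pseudogene Sprr2c-ps (0.869). All share the same 6 pools, so these values are a description. Of these 8, Psmb9, Lgmn, Rbms1 and Mpeg1 also read higher in TNBS-w10 than in TNBS-w8 and TNBS-w12, where 29.3% of all genes did. The choice by likeness to the mean profile favours this, so it adds nothing to the return of the 9 genes. For Psmb9 the log2 difference of TNBS-w10 minus TNBS-w8 was 0.05, within the array spread, and Lgmn read 148 in TNBS-w10 and 135 in TNBS-w8. Rbms1 read 275, 141, 243 and 154 in the TNBS pools, against 96.2 and 119.8 in Saline-w6 and 162 in Saline-w10. Like Gbp2, it was highest in TNBS-w6 and next in TNBS-w10.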

How the data were processed

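Colon RNA pools were measured on 7 Affymetrix arrays. The deposited values are linear signal intensities of probe sets, computed by the authors in Affymetrix Microarray Suite 5.0 with a target of 150, per the labels. Of 12488 probe sets 66 controls were left out. The platform annotation gave 10833 probe sets 1 symbol, 396 several and 1193 none, and only the first were used. The brightest probe set by mean log2 stood for a gene. Values under 50 were set to 50, log2 was taken, both arrays of Saline-w6 were averaged, and genes reaching 100 in any pool were kept. Each group is 1 pool, so no test was made. TNBS-w6 was set against Saline-w6 and the later TNBS pools against Saline-w10, as in the series' design, and a gene was counted from 2-fold. Members and gene lists were chosen with earlier results of these data known. Up to 4 genes a list are named, those with the largest differences at week 6, and the 8 genes most like the mean profile, with exceptions stated. Promoter windows come from RefSeq, GRCm38.p6. The scripts ran in Python 3.11.15 with numpy 2.4.6, pandas 2.3.3 and matplotlib 3.10.9 and were tested on simulated data. The alternatives were other floors, an offset, other scalings, the mean of probe sets, no filter, each Saline-w6 array left out and the other saline pool. Added after seeing the data were the mean of both saline pools, TNBS-w8 or TNBS-w12 left out, the alternatives for the 1.5-fold count, and single genes against the other saline pool or without 1 Saline-w6 array.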

Additional observations from a re-analysis of the deposited data

Results flagged for a closer look

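Of the 9 genes, 6 were higher in TNBS-w6 than in Saline-w6 on both of its arrays and lower in TNBS-w12 than in Saline-w10, each by more than the array spread. The log2 difference of TNBS-w12 minus Saline-w10 was -0.70 for Iigp1, -0.84 for Igtp, -0.46 for Irgm1, -0.48 for Ifi47, -0.48 for Gbp2 and -0.53 for Gbp3. At week 6 the same genes had log2 differences of 2.18, 1.97, 1.53, 1.66, 1.51 and 1.46 in that order, the value of Irgm1 being a lower bound. With 1 pool a group, the difference between both times was not tested. Both comparisons use another saline pool, and Saline-w10 was itself higher than Saline-w6 for all 6 genes, by the brightest probe set of each. The dimmer probe set of Iigp1 was under the floor in both TNBS-w12 and Saline-w10. It gave 0 for TNBS-w12 minus Saline-w10 and -0.06 for Saline-w10 minus Saline-w6, so the opposite direction of Iigp1 rests on 1 probe set. Against Saline-w6, TNBS-w12 had log2 differences of 0.07 for Iigp1, at least 0.73 for Irgm1, 0.51 for Ifi47 and 0.40 for Gbp3, so the opposite direction was lost for these 4, and of -0.17 for Igtp and -0.06 for Gbp2, both within the array spread.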

How the results depend on the processing

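No paired analysis was possible because each group is 1 RNA pool and the results come from no test. The count of 8 genes at week 6 was 5 against Saline-w10 and lay between 7 and 8 without 1 array of Saline-w6, and the median of 1.53 became 1.17 with log2(value + 50) and 1.09 against Saline-w10. At week 8 the count of 0 became 5 against Saline-w6 and 1 against the mean of both saline pools, and the median of 0.35 became 1.26 and 0.80. At week 10 the count of 3 became 2 with a floor of 100, where 22 of 4316 genes were at least 2-fold higher. It became 1 with log2(value + 50), where 15 were, and 6 against Saline-w6, where the median of 0.63 became 1.12. At week 12 the median of -0.48 reversed to 0.0703 against Saline-w6 and was -0.069 against the mean of both saline pools. For TNBS-w12 minus TNBS-w10 the median of -1.12 became -0.80 with log2(value + 50), an offset that shrinks differences of low values. Between both saline pools the count of 1 was 0 with a floor of 100 and with log2(value + 50), 2 with equal array medians and with quantile normalization, and between 1 and 2 without 1 array of Saline-w6. Except where stated, the cause of these shifts was not tested. The counts against another saline pool or the mean of both have no share of all genes beside them. Nor have the recomputed counts between both saline pools and those without 1 array of Saline-w6. The 7 genes higher in TNBS-w10 than in both TNBS-w8 and TNBS-w12 numbered 7 under every floor, offset, scaling, probe set rule and filter tried. The share of all genes lay between 27.6% and 32.6% in these settings, except for 18.8% with no filter on low values. Against TNBS-w12 alone 9 were higher, as were 48.3% of all genes. By at least 1.5-fold over both pools the count was 2 or 3, with no share of all genes beside it. Equal array medians moved the median of all genes to 0.108 at week 8 and 0.132 at week 10, and the genes at least 2-fold higher and lower to 116 and 32 at week 8, beside 66 and 77, and to 66 and 17 at week 10, beside 36 and 28. Quantile normalization gave 76 and 47 at week 8 and 38 and 21 at week 10. Of 468 recomputed differences of single genes 390 stayed within the array spread and 78 moved by more. None that was at least 2-fold changed sign, but 18 smaller ones did, 7 of them against the other saline pool. In 3 of the 18 both values lay beyond the array spread: against Saline-w6 in place of Saline-w10, TNBS-w12 turned to at least 0.73 for Irgm1, 0.51 for Ifi47 and 0.40 for Gbp3. Irgm1 was under the floor on both Saline-w6 arrays, and with a floor of 100 the week 6 difference was 0.53 for Irgm1, 1.11 for Ifi47 and 1.60 for Igtp.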

Other observations

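Of 10 ubiquitin-like modifiers and partners of Ubd on the array 9 passed the filter. None of the 9 was at least 2-fold different at week 6 (median log2 difference 0.13), where 2.55% of all genes were higher and 0.996% lower. Of the 9, 1 was higher in TNBS-w10 than in both TNBS-w8 and TNBS-w12, where 29.3% of all genes were. This was Ube2z, which with Uba6 loads FAT10 onto proteins. Ube2z, named after its values were seen, read 238, 173, 367 and 313.5 in the TNBS pools in order of time, against 237 and 205 in Saline-w6 and 288 in Saline-w10. At least 2-fold higher in TNBS-w10 than in TNBS-w8 were 2 of the 9, Ube2z at 2.12-fold and Urm1, also named after its values were seen, at 2.13-fold or more, where 2.11% of all genes were. Urm1 read 93.6, 49.7, 106.5 and 128 in the TNBS pools, against 109.9 and 47.6 in Saline-w6 and 36.8 in Saline-w10, so it was also at least 2.13-fold above Saline-w10 at week 10, but highest in TNBS-w12. As a pool mean it passed the filter through TNBS-w10 and TNBS-w12 alone, so its high values there are tied to how it was kept. Its own Saline-w6 arrays were also far apart. Isg15 was 1.64-fold, Nedd8 1.33-fold and Urm1 1.26-fold higher and Hdac6 1.23-fold lower at week 6. The list's median was 0.37 at week 8, 0.05 at week 10 and 0.12 at week 12.

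Genes of the TNF and NF-kappaB response went both ways at week 6, with 7 of 16 past the filter and medians of -0.02 at week 6, -0.02 at week 8, -0.28 at week 10 and -0.13 at week 12. Il1b, an inflammatory cytokine, was at least 2.7-fold and Vcam1, an adhesion molecule, 2.43-fold higher at week 6, the 2 of the 7 past 2-fold upward, where 2.55% of all genes were. Both passed the filter through TNBS-w6 alone. Relb was 1.64-fold and Nfkbia 1.16-fold lower. Il1b read 135 in TNBS-w6 and at most 10 in the other TNBS pools, so it did not share the return of Ubd. Tnf, Il6 and Icam1 were under the floor on every array.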
